A study of Mus musculus with 36 samples.

Results

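The clustered histone genes lie in 4 groups on mouse chromosomes 13, 3, 11 and 6, and encode the linker histone H1 and the core histones H2A, H2B, H3 and H4. They were taken as every row of the deposited gene table whose symbol begins with Hist1h, Hist2h, Hist3h or Hist4h and lacks the ending -ps. This gave 69 genes of 54735 rows: 6 for H1, 20 for H2A, 18 for H2B, 12 for H3 and 13 for H4. GENCODE M21 annotates 2 of the H2A rows, Hist1h2aj and Hist1h2al, as pseudogenes, and Hist1h2al lies apart from the clusters at chr13:51202727-51203065. Neither was tested. Of the 69, 42 reached at least 1 TPM in at least 3 libraries and were tested (3 H1, 12 H2A, 12 H2B, 8 H3 and 7 H4). TPM is an abundance normalised for transcript length that sums to the same total in every library.

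RNA was sequenced from mouse embryonic fibroblasts (MEFs) deleted for GCN2 (GCN2_del, GCN2-/-), deleted for PERK (PERK_del, PERK-/-) or wild type (WT). GCN2 and PERK are kinases of the integrated stress response: both phosphorylate the translation factor eIF2alpha, GCN2 when amino acids run short and PERK when proteins misfold in the endoplasmic reticulum (ER). Cells of each genotype received 200 nM thapsigargin, which empties the ER of calcium by blocking its pump, DMSO, amino acid starvation (AAS) in a medium without lysine and arginine, or no treatment (no_treat). A length of 6 h is given for thapsigargin and AAS, and none for DMSO. The 36 libraries form 12 groups of 3, described by the submitters as technical replicates. The labels name 1 kind of cell per genotype and no separate clones, so a genotype and its line cannot be told apart, and each p-value measures only the spread between these libraries. No label names DMSO as the control for thapsigargin or no_treat as that for AAS. Those were the pairs compared here.

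Clustered histone genes are known as replication-dependent: their mRNAs build up in S phase, when new DNA needs new nucleosomes, and fall when replication stops. Most of these mRNAs have no introns and no poly(A) tail. They end just after a conserved stem-loop that the stem-loop binding protein SLBP holds, and are cut there with the help of the U7 small nuclear RNP. Some of these genes also give longer, polyadenylated transcripts that end beyond the stem-loop, which are best known from resting or differentiated cells. The labels name a stranded Illumina TruSeq kit and do not say whether RNA was selected by poly(A) tail or freed of ribosomal RNA, so how far tailless mRNAs entered these libraries was not tested.

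The stem-loop was searched in the annotated transcripts of the members (GENCODE M21, GRCm38, transcript strand) as the motif GGNNCTTNTCAGNNCC, read on the transcript strand. It was present in 36 of the 69 gene models. Counted by transcript rather than by gene, 0.0861% of all 141767 annotated transcripts held it. Some models without it are short, such as Hist1h4k at 312 bases and Hist1h2bl at 381 bases. A model that ends before the stem-loop cannot show it, so a model without the motif does not mean a gene without it. All 26 models of H1, H2A, H2B and H3 that hold it have the same 16 bases, and the 10 H4 models use 3 other versions of the stem. The versions are shown with their flanks, 5′ to 3′, with the stem and loop in capitals. The first 3 genes are the members that results below turn on, and the last 3 are H4 genes with the other versions.
Hist1h1c: aaaaGGCTCTTTTCAGAGCCacca
Hist3h2a: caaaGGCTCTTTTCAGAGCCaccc
Hist1h2bg: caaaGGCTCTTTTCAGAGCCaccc
Hist1h4h: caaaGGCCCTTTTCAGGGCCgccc
Hist1h4j: taaaGGTCCTTTTCAGGACCacca
Hist1h4a: caaaGGCCCTTCTCAGGGCCgccc

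In 18 of the 36 models the annotation ran more than 100 bases past the stem-loop. The run was 840 bases in Hist1h1c (chr13:23738808-23740367, + strand) and 1643 bases in Hist3h2a (chr11:58954685-58956830, + strand). It was 155 bases in Hist1h2bg (chr13:23571396-23572013, + strand). Both Hist1h2bc (chr13:23684199-23692908, + strand), the only spliced model of its gene, and Hist1h4i (chr13:22040636-22041362, - strand) have models in which the motif was not found.

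Many members are near copies of each other, which bears on how kallisto, the quantifier named by the submitters, could divide reads among them. For each member the share of its transcript's 31-base words found in no other gene was counted. The median share was 29.2% over the 42 tested members. It was 88.6% for Hist1h1c, 67.9% for Hist3h2a, which shares 32.1% with Trim17, 66.5% for Hist1h2bc and 64.4% for Hist1h4i. It was 6.64% for Hist1h2ap, which shares 93.4% of its words with Hist1h2ao, and 0% for the tested rows Hist2h2aa1, Hist2h2aa2, Hist2h2bb and Hist2h3b and the untested Hist2h3c1. Values of single rows with a low share are uncertain, and sums over a histone class are given beside them.

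Clustered histone mRNA was scarce in the libraries of all 12 groups. How far tailless mRNAs entered them was not tested, so these are not levels in the cells. The 69 rows together held 57.3 to 197 TPM per library, and 4 members carried 48.5% of their summed mean. These were Hist1h1c, encoding the linker histone H1.2, with a mean of 14.9 TPM over the 36 libraries (4.27 to 58.9), the H4 gene Hist1h4i with 14.7 TPM (6.82 to 23.0), the H2B gene Hist1h2bc with 11.1 TPM (2.66 to 24.7) and the H2A gene Hist3h2a with 4.34 TPM (1.39 to 13.0). They were the only 4 members with at least 1 TPM in all 36 libraries. The next 4 by mean were Hist1h2bk (2.81 TPM), Hist1h4k (2.49 TPM), Hist1h2ap (2.07 TPM) and Hist1h2bg (2.01 TPM).

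**Figure D1:**
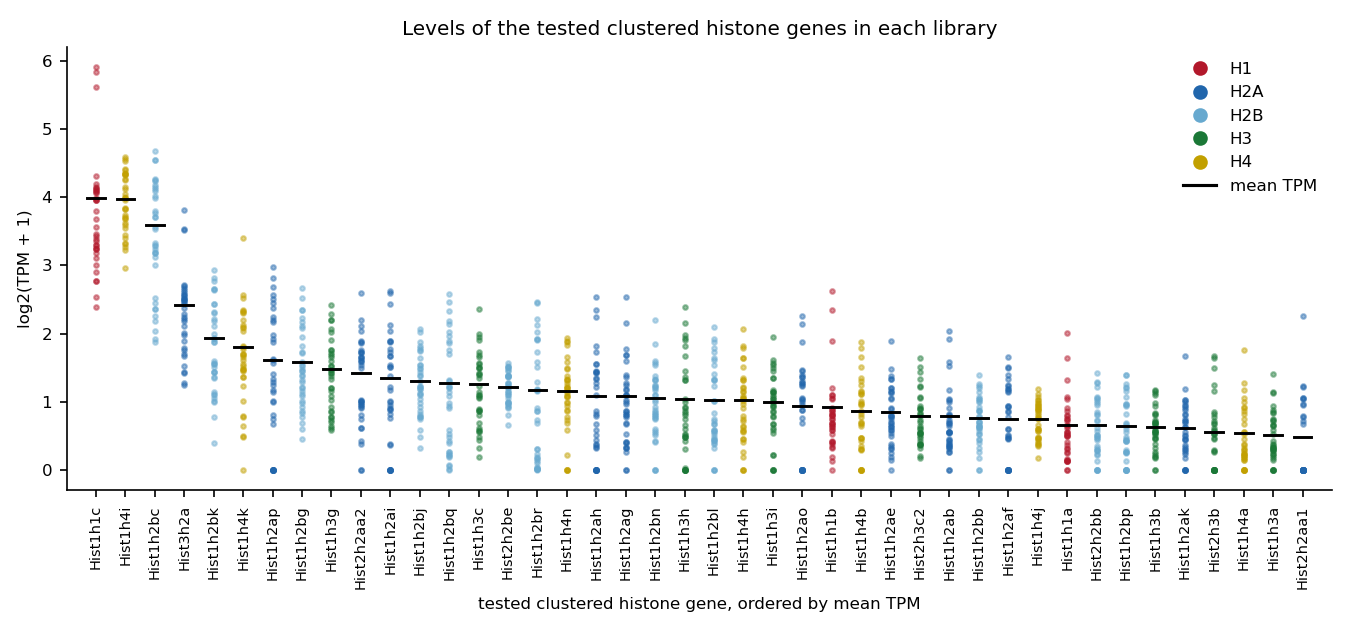
Level of each of the 42 tested clustered histone genes in each of the 36 libraries on the log2(TPM + 1) scale, coloured by histone class, with a black bar at the mean TPM. Hist1h1c, Hist1h4i, Hist1h2bc and Hist3h2a stand above the rest, and most other members reach the bottom of the axis in some libraries.

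Among the 27 members that did not reach the threshold, the highest value in any library was 1.84 TPM, in Hist1h4f. They were the H1 genes Hist1h1d, Hist1h1e and the testis gene Hist1h1t; the H2A genes Hist1h2aa, Hist1h2ac, Hist1h2ad, Hist1h2aj, Hist1h2al, Hist1h2an, Hist2h2ab and Hist2h2ac; the H2B genes Hist1h2ba, Hist1h2be, Hist1h2bf, Hist1h2bh, Hist1h2bm and Hist3h2ba; the H3 genes Hist1h3d, Hist1h3e, Hist1h3f and Hist2h3c1; and the H4 genes Hist1h4c, Hist1h4d, Hist1h4f, Hist1h4m, Hist2h4 and Hist4h4. Hist1h2ba, which encodes a testis H2B, was listed at 0 in every library. Just inside the threshold was Hist1h3a, with 3 libraries at 1 TPM or more and a mean of 0.438 TPM. Just outside it were Hist1h3d, Hist1h4f and Hist1h4m, with 2 such libraries each and means of 0.425, 0.406 and 0.215 TPM.

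The replicates of a group correlated at 0.962 to 0.988 over tested genes (log2 scale). In 6 libraries, 1 in each of 6 groups, microRNA genes took over 2% of all TPM (range over all libraries 0.805 to 3.58%), and 4 of the 6 had the highest member sum of their group. Their part in the results was not tested beyond leaving them out. Of the 10 fibroblast markers, Vim, Fn1 and Col1a2 were above 100 TPM in every library, Lum was at a median of 0 and Dcn at 0.424 TPM. The others varied widely over the libraries: Col1a1 from 8.94 to 1589 TPM, Col3a1 from 0.203 to 270 TPM and Pdgfra from 0.206 to 33.1 TPM. Thy1 ranged from 0.941 to 7.69 TPM and Pdgfrb from 11.3 to 35.5 TPM. The summed level of the 10 was 5452 to 6603 TPM in GCN2_del, 2849 to 3403 TPM in PERK_del and 3270 to 4555 TPM in WT libraries. Summed levels of other cell types' markers were at most 13.3 TPM for 5 epithelial, 6.84 TPM for 4 endothelial, 10.54 TPM for 5 immune and 45.4 TPM for 4 neural genes. In untreated cells Eif2ak4, which encodes GCN2, was at 5.25 ± 0.619 TPM in GCN2_del against 24.6 ± 3.81 TPM in WT, and Eif2ak3, which encodes PERK, at 4.22 ± 0.353 TPM in PERK_del against 6.99 ± 0.878 TPM in WT (SD, n = 3 each). Which exons the 2 deletions removed is not stated in the labels.

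With thapsigargin, the H1 gene Hist1h1c, the H2B gene Hist1h2bc and the H2A gene Hist3h2a rose in GCN2_del and WT cells and were not called in PERK_del cells. In GCN2_del cells 14 of the 42 members (33.3%) rose and 0 fell against DMSO, in a comparison that called 25.4% of all 16083 genes higher and 11.3% lower. With any 1 library left out 23.8 to 26.2% of members were called. Under median-of-ratios rescaling, quantile normalization or a pseudocount of 0.1 the share was 21.4%. The share over all genes is given for the main fit only, so these shares have no matching value beside them. The count depended on the setting and is not read as a result about the histone genes as a group. In WT cells 3 members rose and 1 fell (11.4% of all genes higher and 14.8% lower). In PERK_del cells 0 members were called (2.5% of all genes higher and 2.8% lower), with 6 at an unadjusted limma p under 0.05. Called or not, 33 members were lower there and 9 higher. Their median change was -0.20, beside -0.04 over all genes tested. A member is called here when limma gave it a p under 0.05 once adjusted (Benjamini-Hochberg) across the 16083 genes. Changes are on the log2(TPM + 1) scale, which understates those of low genes.

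The H1 genes Hist1h1c, Hist1h1b and Hist1h1a rose with thapsigargin in GCN2_del cells. Hist1h1a reached the filter only with the 3 GCN2_del thapsigargin libraries, among 5 at 1 TPM or more, so it had to be high there and its call adds no support. Linker histones bind the DNA that enters and leaves the nucleosome. Hist1h1c stood at 55.7, 48.1 and 58.9 TPM in GCN2_del cells with thapsigargin, against 14.5, 14.8 and 15.9 TPM with DMSO. The lowest thapsigargin library was above the highest DMSO library, and the change was 1.77 ± 0.11 (log2 ± SE, limma adjusted p = 3.56e-13). Hist1h1b, encoding H1.5, stood at 5.17, 2.73 and 4.11 TPM with thapsigargin, against 0.685, 0.841 and 0.734 TPM with DMSO. Hist1h1a, encoding H1.1, stood at 1.501, 2.13 and 3.03 TPM with thapsigargin, against 0.688, 0.188 and 0.105 TPM with DMSO. Neither gene's groups overlapped, with changes of 1.48 ± 0.21 (limma adjusted p = 2.39e-06) and 1.28 ± 0.20 (limma adjusted p = 1.43e-05). Both genes are almost unique in sequence (96.1 and 99.7% of words).

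In WT cells Hist1h1c stood at 14.6, 16.6 and 14.5 TPM with thapsigargin, against 8.44, 8.05 and 8.55 TPM with DMSO, a rise of 0.79 ± 0.11 (limma adjusted p = 1.56e-06). In PERK_del cells it stood at 16.2, 17.2 and 16.0 TPM with thapsigargin, against 16.3, 18.8 and 15.6 TPM with DMSO. The PERK_del groups overlapped, and the difference was -0.03 ± 0.11 (limma adjusted p = 0.974). The rise was larger in GCN2_del than in WT cells by 0.98 ± 0.15 (limma adjusted p = 9e-05) and smaller in PERK_del than in WT cells by -0.83 ± 0.15 (limma adjusted p = 0.00032).

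The choice of control bears on this gene. Hist1h1c rose with DMSO against no treatment in all 3 lines, while DMSO left nearly all other genes uncalled (0.056% of all genes higher and 0.0933% lower in GCN2_del, 0.137 and 0.106% in PERK_del, 0.0435 and 0.0746% in WT). It was the 1 member called in each line. Untreated libraries held 9.95, 9.21 and 9.81 TPM in GCN2_del, 9.44, 8.44 and 10.8 TPM in PERK_del and 4.81, 4.27 and 5.83 TPM in WT, all below every DMSO library of the same line. The changes with DMSO were 0.60 ± 0.11 in GCN2_del (limma adjusted p = 0.0103), 0.76 ± 0.11 in PERK_del (limma adjusted p = 0.000739) and 0.65 ± 0.11 in WT (limma adjusted p = 0.00978). The GCN2_del call was lost without DMSO replicate 3 or without no_treat replicate 2, the WT call without DMSO replicate 1, DMSO replicate 3 or no_treat replicate 1, and all 3 calls when the compared groups were fitted alone. Set against untreated cells, the thapsigargin change of Hist1h1c was 2.37 in GCN2_del, 0.73 in PERK_del and 1.45 in WT cells, and all 3 were called. The difference between GCN2_del and WT was then 0.92, and that between PERK_del and WT -0.72, both still called.

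**Figure D2:**
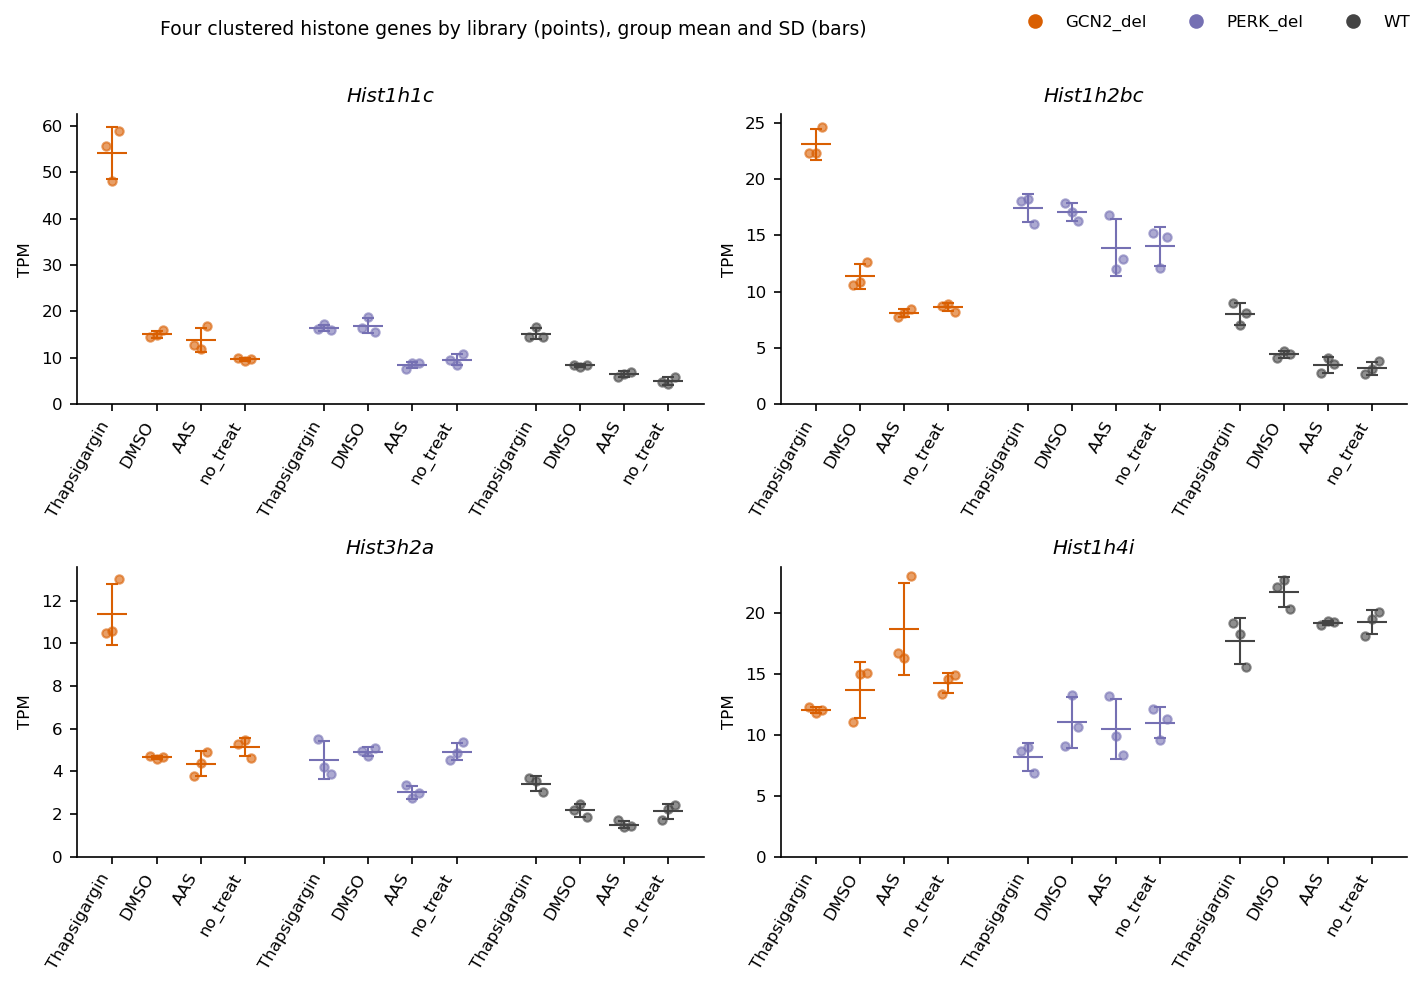
TPM of the 4 most abundant clustered histone genes in each library (points) with group mean and SD (bars, n = 3), by line and treatment. Hist1h1c, Hist1h2bc and Hist3h2a stand highest in GCN2_del cells with thapsigargin, at means of 54.2, 23.1 and 11.4 TPM, and Hist1h4i does not.

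The H2B gene Hist1h2bc rose with thapsigargin in 2 of the 3 lines. It stood at 22.3, 22.3 and 24.7 TPM in GCN2_del cells with thapsigargin, against 10.6, 10.8 and 12.6 TPM with DMSO (0.97 ± 0.12, limma adjusted p = 1.87e-07). In WT cells it stood at 9.02, 7.05 and 8.07 TPM with thapsigargin, against 4.12, 4.75 and 4.46 TPM with DMSO (0.73 ± 0.12, limma adjusted p = 2.04e-05). The groups of both lines stood apart, and the difference between the rises of GCN2_del and WT was 0.24 ± 0.17 (limma adjusted p = 0.367). In PERK_del cells it stood at 18.0, 18.2 and 16.0 TPM with thapsigargin, against 17.9, 17.1 and 16.3 TPM with DMSO. These overlapped, and the response differed from that of WT by -0.70 ± 0.17 (limma adjusted p = 0.0041).

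The H2A gene Hist3h2a also rose in GCN2_del and WT cells and was not called in PERK_del cells. It stood at 10.49, 10.6 and 13.0 TPM in GCN2_del cells with thapsigargin, against 4.73, 4.57 and 4.67 TPM with DMSO (1.12 ± 0.11, limma adjusted p = 5.13e-09). It stood at 3.67, 3.56 and 3.03 TPM in WT cells with thapsigargin, against 2.17, 2.46 and 1.88 TPM with DMSO (0.48 ± 0.11, limma adjusted p = 0.0016). In PERK_del cells the values were 5.53, 4.196 and 3.88 TPM with thapsigargin, against 4.97, 4.70 and 5.10 TPM with DMSO. The PERK_del groups overlapped, and their response was lower than that of WT by -0.59 ± 0.16 (limma adjusted p = 0.0114). The response of GCN2_del was higher than that of WT by 0.64 ± 0.16 (limma adjusted p = 0.00811), a call lost under median-of-ratios rescaling and under quantile normalization. Those rescalings lowered the median difference over all tested genes by -0.15 (log2), so differences between GCN2_del and WT thapsigargin responses are read relative to that.

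Among the other H2B genes, Hist1h2bg stood at 4.73, 4.09 and 5.39 TPM in GCN2_del cells with thapsigargin, against 1.87, 1.59 and 1.31 TPM with DMSO (1.15 ± 0.17, limma adjusted p = 6.74e-06). In WT cells it stood at 0.720, 0.829 and 1.12 TPM with thapsigargin, against 1.79, 0.789 and 0.893 TPM with DMSO, which overlap. The responses differed by 1.31 ± 0.25 (limma adjusted p = 0.000829). Hist1h2br stood at 4.51, 4.44 and 3.39 TPM with thapsigargin in GCN2_del cells, against 2.31, 1.28 and 0.0233 TPM with DMSO (1.36 ± 0.40, limma adjusted p = 0.00783). Hist1h2bq, which shares 98.3% of its words with Hist1h2br, changed by 1.14 ± 0.39 (limma adjusted p = 0.0235). Both calls were lost without DMSO replicate 3, whose values were the lowest of the group. The Hist1h2bq call was also lost without thapsigargin replicate 1 or 2, with a pseudocount of 0.1 and with no filter, and both with the compared groups fitted alone. Hist2h2be, a long single-exon H2B transcript of 2620 bases with 97.2% unique words, rose slightly in GCN2_del cells, to 1.64 ± 0.201 TPM with thapsigargin against 1.15 ± 0.154 TPM with DMSO (SD, n = 3; 0.30 ± 0.10, limma adjusted p = 0.0221). It fell in WT cells, to 1.10 ± 0.177 TPM against 1.76 ± 0.132 TPM (-0.40 ± 0.10, limma adjusted p = 0.00393), a call lost against untreated cells. The difference between these responses was 0.70 ± 0.14 (limma adjusted p = 0.00208). The GCN2_del call for Hist2h2be was lost without DMSO replicate 2 or 3 or thapsigargin replicate 1 or 3, and under both rescalings.

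Of the 8 tested H3 genes, 4 rose with thapsigargin in GCN2_del cells, and of the 7 tested H4 genes 1 did. Hist2h3c2 stood at 1.70, 2.11 and 1.54 TPM with thapsigargin, against 0.159, 0.303 and 0.289 TPM with DMSO (1.15 ± 0.22, limma adjusted p = 0.000112). Hist2h3b, which has no unique words, Hist1h3i and Hist1h3b passed with limma adjusted p between 0.0427 and 0.0441, and the H4 gene Hist1h4k with 0.0458. Hist1h3b reached the filter only with the GCN2_del thapsigargin libraries, so its call adds no support. Hist1h4k stood at 4.06, 2.502 and 9.59 TPM with thapsigargin, against 0.570, 3.29 and 1.88 TPM with DMSO, and its groups overlapped. Each of those 4 calls was lost in at least 3 of the 6 fits that left out a library, and without the libraries of high microRNA share. Hist1h4i, the most abundant H4 gene, stood at 12.3, 11.8 and 12.002 TPM with thapsigargin in GCN2_del cells, against 11.1, 14.9 and 15.05 TPM with DMSO. Its groups overlapped in GCN2_del, and no treatment comparison called it in any line.

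In all, 7 of the 14 rises in GCN2_del cells were kept under every alternative that could test them: Hist1h1c, Hist1h1b, Hist1h1a, Hist1h2bc, Hist1h2bg, Hist3h2a and Hist2h3c2, with the limit given above for Hist1h1a. The share of kept rises over all genes is not given, so this count describes single members only. Under median-of-ratios rescaling 9 members rose and 0 fell. The median change over the 42 members was 0.13, beside 0.08 over all genes tested.

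**Figure D3:**
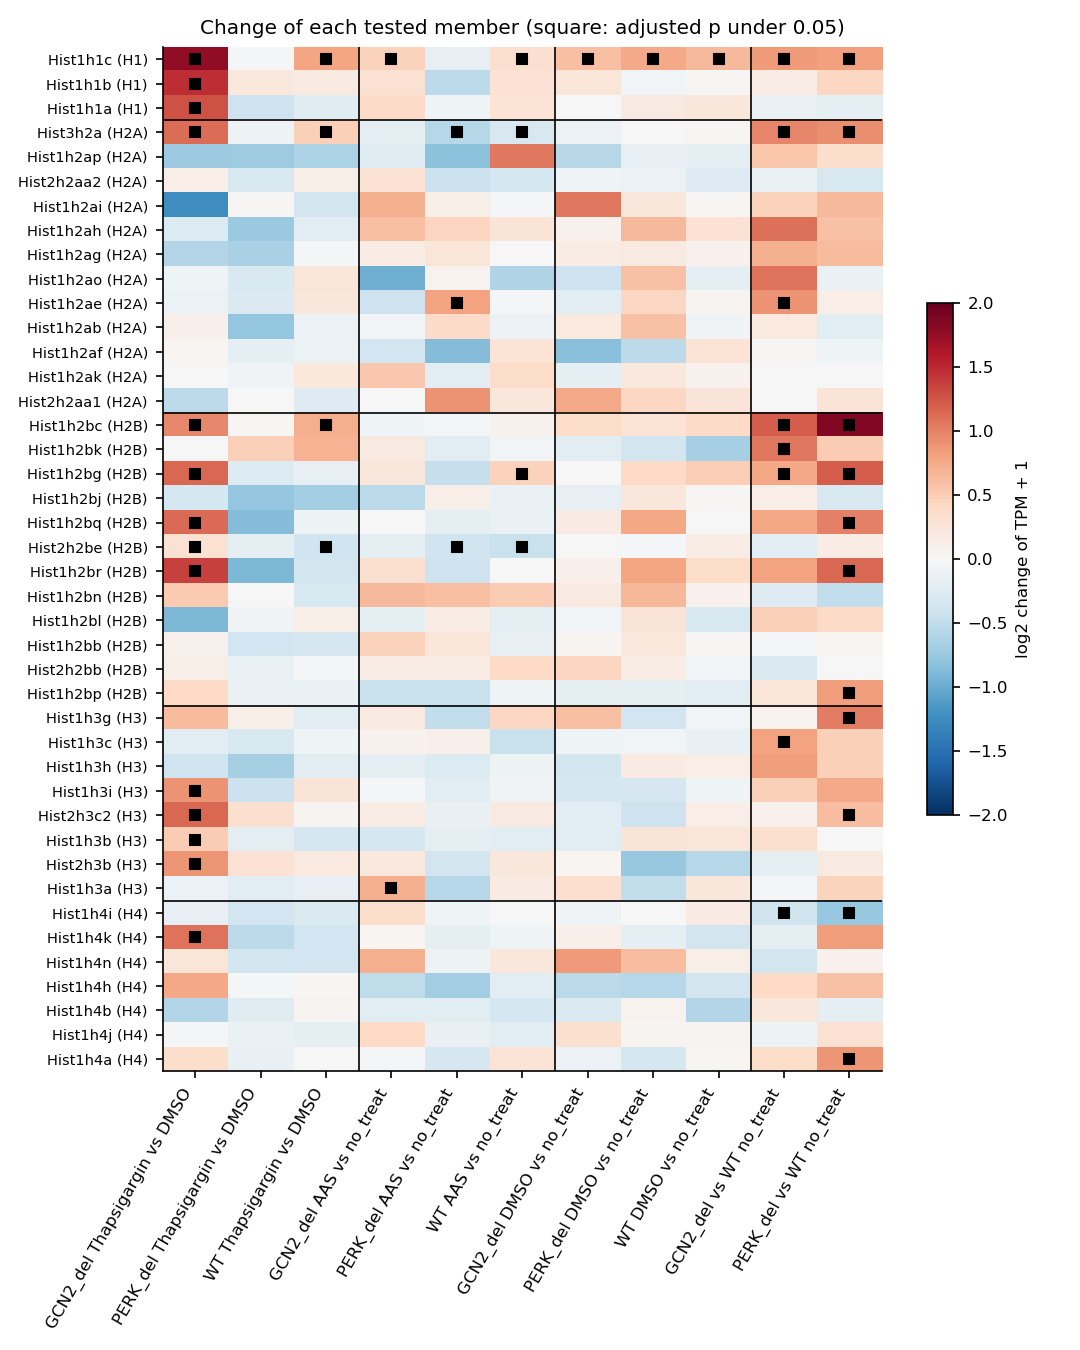
Change (log2 of TPM + 1) of each of the 42 tested members, grouped by histone class, in 11 comparisons, with black squares where the limma adjusted p was under 0.05. The column for thapsigargin in GCN2_del cells holds 14 squares, all for rises, and the one for PERK_del cells holds 0.

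Sums over a class count reads shared among its own rows together, but still depend on the lengths of the rows that received them and on words shared with rows outside the class. The H1 genes reached 62.2 ± 6.58 TPM in GCN2_del cells with thapsigargin, against 16.8 ± 0.431 TPM with DMSO. The H2B genes reached 50.6 ± 3.70 TPM against 28.2 ± 2.81 TPM, and the H3 genes 15.5 ± 1.99 TPM against 9.16 ± 0.744 TPM (SD, n = 3 each). In these 3 classes each thapsigargin library was above each DMSO library. The H2A sums were 18.2, 24.9 and 28.4 TPM with thapsigargin, against 25.3, 18.1 and 17.9 TPM with DMSO. The H4 sums were 20.0, 23.2 and 32.1 TPM with thapsigargin, against 18.0, 23.1 and 23.6 TPM with DMSO. Both of these overlapped. All 69 rows together held 177 ± 18.0 TPM with thapsigargin and 96.2 ± 4.42 TPM with DMSO. Without the 4 most abundant members the sums were 76.6 ± 14.1 TPM and 51.4 ± 7.44 TPM. In bulk RNA a change in the share of cells that make a transcript and a change of its level per cell cannot be told apart.

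Other measures moved with thapsigargin in GCN2_del cells too. Both tested endothelial markers of 4 rose, and the list's sum was 5.15 to 6.84 TPM with thapsigargin against 2.198 to 3.89 TPM with DMSO, with Cdh5 and Tek at medians of 0.0145 and 0.0132 TPM over all libraries. Of 3 tested neural markers 1 rose, and the sum of the 4 was 37.8 to 43.5 TPM against 22.7 to 28.2 TPM, with Sox10 at 0 in every library. Of 9 tested fibroblast markers 1 rose and 2 fell. The mitochondrial share of TPM was 4.27 to 5.78% with thapsigargin against 6.39 to 7.29% with DMSO. Their part in the histone changes was not tested.

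In PERK_del cells the sum over all members was 92.1, 90.9 and 86.1 TPM with thapsigargin, against 97.4, 112 and 128 TPM with DMSO, so that every thapsigargin library was the lower one. No test is given for a sum. In WT cells the same sums were 74.0, 72.8 and 61.8 TPM with thapsigargin, against 76.8, 68.2 and 58.9 TPM with DMSO, which overlapped. Single WT genes moved in both directions within these sums: Hist1h1c, Hist1h2bc and Hist3h2a rose and Hist2h2be fell.

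**Figure D4:**
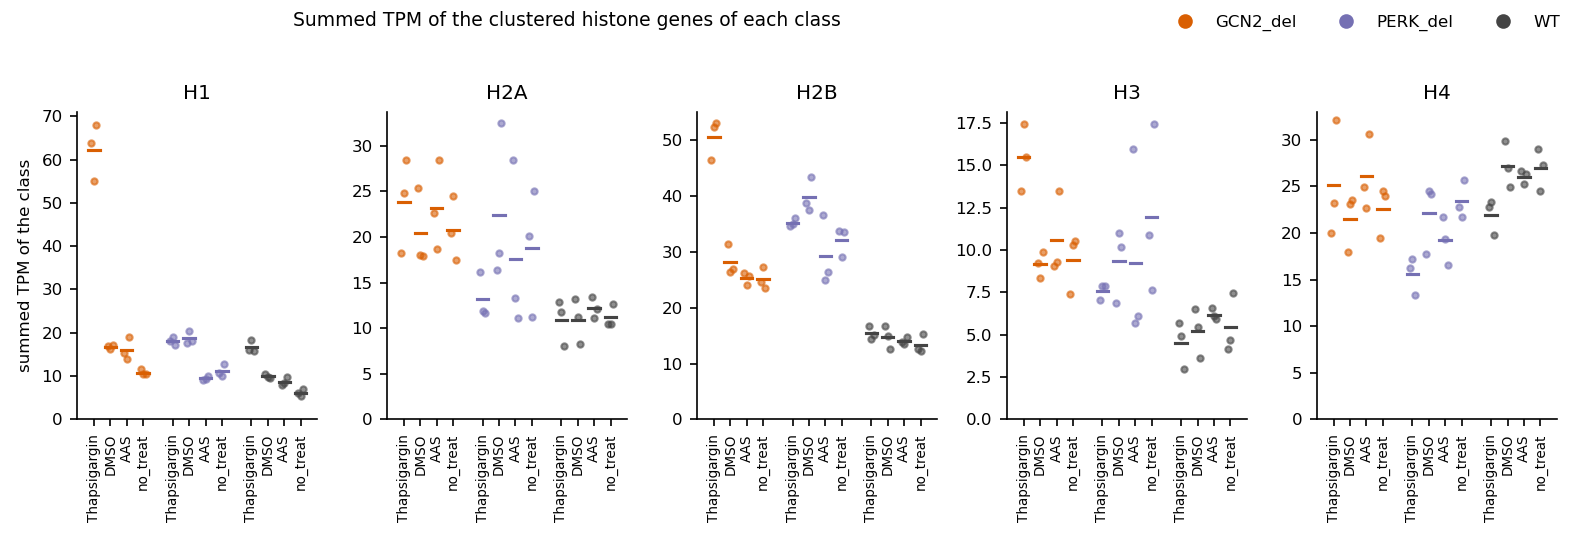
Summed TPM of the clustered histone genes of each class in each library (points) and group mean (bar). The H1 sums of GCN2_del cells with thapsigargin, 55.0 to 68.0 TPM, stand above those of all other groups, whereas the H4 means of the 12 groups lie between 15.6 and 27.2 TPM.

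With amino acid starvation few clustered histone genes were called. Against no treatment 2 of 42 members (4.76%) rose and 0 fell in GCN2_del cells (11.7% of all genes higher and 12.2% lower). In PERK_del cells 1 (2.38%) rose and 2 (4.76%) fell (5.75 and 6.39%), and in WT cells 2 (4.76%) rose and 2 (4.76%) fell (12.5 and 17.4%). Of the 42, 19 had means under 1 TPM, so a member without a call may still have changed. These counts are not read as a result about the histone genes as a group. Hist1h1c stood at 12.8, 11.8 and 16.8 TPM in starved GCN2_del cells, against 9.95, 9.21 and 9.81 TPM untreated (0.46 ± 0.11, limma adjusted p = 0.00203). In WT cells it stood at 5.83, 6.46 and 7.04 TPM starved, against 4.81, 4.27 and 5.83 TPM untreated. The lowest starved WT library and the highest untreated one were both at 5.83 TPM, and the rise of 0.32 ± 0.11 (limma adjusted p = 0.0223) was lost without starved replicate 2 or 3 or untreated replicate 1 or 2. Against DMSO, the sign turned: the Hist1h1c difference was -0.13 in GCN2_del cells (limma adjusted p = 0.463) and -0.33 in WT cells (limma adjusted p = 0.0229). Fitted on the compared groups alone, neither starvation rise of Hist1h1c was called.

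Hist3h2a fell with starvation in 2 lines. It stood at 3.34, 2.73 and 2.96 TPM in starved PERK_del cells, against 4.54, 4.87 and 5.36 TPM untreated (-0.56 ± 0.11, limma adjusted p = 0.000792). In WT cells it stood at 1.69, 1.39 and 1.43 TPM starved, against 1.71, 2.24 and 2.40 TPM untreated (-0.31 ± 0.11, limma adjusted p = 0.0333). The WT groups were barely apart, and that call was lost without starved replicate 2 or 3 or untreated replicate 2 or 3, and under both rescalings. In GCN2_del cells the values were 3.76, 4.39 and 4.92 TPM starved, against 5.26, 5.46 and 4.64 TPM untreated, which overlap (-0.20 ± 0.11, limma adjusted p = 0.222).

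Hist2h2be fell with starvation in PERK_del cells, to 1.12 ± 0.216 TPM against 1.78 ± 0.159 TPM untreated (-0.39 ± 0.10, limma adjusted p = 0.00931), and in WT cells, to 0.841 ± 0.217 TPM against 1.49 ± 0.0999 TPM (-0.44 ± 0.10, limma adjusted p = 0.00124). In GCN2_del cells it was at 0.881 ± 0.123 TPM starved and 1.13 ± 0.129 TPM untreated (SD, n = 3 each). The PERK_del call was lost without starved replicate 2, and both calls, like that of Hist3h2a in PERK_del cells, when the compared groups were fitted alone. The remaining starvation calls, Hist1h3a in GCN2_del (0.72), which reached the filter only with 2 libraries of starved GCN2_del cells among its 3, Hist1h2ae in PERK_del (0.81) and Hist1h2bg in WT cells (0.46), had limma adjusted p of 0.0322, 0.0468 and 0.0486, and each was lost in at least 2 of the 6 fits that left out a library.

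The starvation responses of GCN2_del and WT cells differed in 0 members (3.69% of all genes higher and 4.17% lower), with 1 at an unadjusted limma p under 0.05. Those of PERK_del and WT differed in 2 members, both lower in PERK_del (5.58 and 5.34%): Hist1h2bg by -0.91 ± 0.25 (limma adjusted p = 0.0138) and Hist1h1c by -0.48 ± 0.15 (limma adjusted p = 0.0386). Both calls were lost when the libraries of high microRNA share were left out and when the compared groups were fitted alone, that of Hist1h1c also in 7 of the 12 fits that left out a library, and that of Hist1h2bg without untreated PERK_del replicate 2. For the thapsigargin responses the corresponding counts were 9 higher and 0 lower in GCN2_del (12.3 and 1.95%) and 0 higher and 3 lower in PERK_del (5.59 and 7.38%). Hist1h1a and Hist1h3b are among the 9 and add no support, since they reached the filter only with the GCN2_del thapsigargin libraries. The 3 of PERK_del were Hist1h1c, Hist1h2bc and Hist3h2a. Each set of differences shares its WT libraries.

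Untreated, Hist1h2bc, Hist1h1c, Hist3h2a and Hist1h2bg were higher in both deletion lines than in WT cells. In GCN2_del 7 of 42 members (16.7%) were higher and 1 lower, against 21.2% of all genes higher and 23.2% lower. In PERK_del 10 (23.8%) were higher and 1 lower, against 31.2 and 18.6% of all genes. Both counts of higher members lie below the share over all genes and are not a result about the histone genes as a group. Hist1h2bc stood at 8.71, 8.89 and 8.21 TPM in GCN2_del and 15.3, 12.1 and 14.8 TPM in PERK_del, against 2.66, 3.11 and 3.80 TPM in WT. The 3 lines did not overlap, and the differences from WT were 1.20 ± 0.12 (limma adjusted p = 1.38e-09) and 1.85 ± 0.12 (limma adjusted p = 1.91e-13).

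Hist1h1c was higher than in WT by 0.84 ± 0.11 in GCN2_del (limma adjusted p = 2.06e-07) and by 0.82 ± 0.11 in PERK_del (limma adjusted p = 2.7e-07). Hist3h2a stood at 5.26, 5.46 and 4.64 TPM in GCN2_del and 4.54, 4.87 and 5.36 TPM in PERK_del, against 1.71, 2.24 and 2.40 TPM in WT. The deletion lines overlapped each other and lay above WT, by 0.98 ± 0.11 (limma adjusted p = 2.71e-08) and 0.93 ± 0.11 (limma adjusted p = 5.91e-08). Hist1h2bg was also higher in both, at 1.57 ± 0.308 TPM in GCN2_del and 2.56 ± 0.936 TPM in PERK_del, against 0.501 ± 0.127 TPM in WT (0.77 and 1.21). The GCN2_del difference of Hist1h2bg was lost when DMSO groups were compared. Both comparisons share the untreated WT libraries.

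Hist1h4i went the other way. It stood at 13.3, 14.5 and 14.9 TPM in GCN2_del and 12.1, 9.57 and 11.3 TPM in PERK_del, against 18.1, 19.5 and 20.1 TPM in WT. All libraries of both deletion lines were below all WT libraries, by -0.41 ± 0.14 (limma adjusted p = 0.0216) and -0.76 ± 0.14 (limma adjusted p = 5.85e-05). The GCN2_del call was lost without its own replicate 1 or WT replicate 2 or 3, and under both rescalings. The PERK_del call was kept under every alternative.

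Other untreated differences lay in single rows of low level. Hist1h2bk stood at 3.63, 6.63 and 3.55 TPM in GCN2_del, against 1.16, 1.86 and 1.93 TPM in WT (1.05 ± 0.35, limma adjusted p = 0.015), a call lost without GCN2_del replicate 2 or WT replicate 1. Hist1h3g stood at 3.88, 1.67 and 3.61 TPM in PERK_del, against 0.902, 1.31 and 0.628 TPM in WT (1.02 ± 0.25, limma adjusted p = 0.0014), and this call was kept under every alternative. The others were Hist1h2ae and Hist1h3c in GCN2_del, and Hist1h2bp, Hist1h2bq, Hist1h2br, Hist1h4a and Hist2h3c2 in PERK_del, with limma adjusted p between 0.00707 and 0.0337. Each of these 7 calls was lost under at least 1 alternative, that of Hist1h4a under 9, and Hist1h4a reached the filter only with 2 untreated PERK_del libraries among its 4 at 1 TPM or more. Summed over a class, the H2B genes held 25.1 ± 1.88 TPM in GCN2_del and 32.1 ± 2.62 TPM in PERK_del, against 13.3 ± 1.66 TPM in WT. The H1 genes held 10.8 ± 0.717 and 11.2 ± 1.52 TPM, against 6.12 ± 0.775 TPM in WT (SD, n = 3 each). The summed fibroblast markers were lower in PERK_del and higher in GCN2_del than in WT, with 1 of 9 tested higher and 7 lower in PERK_del and 4 higher and 2 lower in GCN2_del, and their part in these differences was not tested.

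Over the 15 comparisons there were 63 calls in 22 of the 42 members. Of these, 26 calls in 10 members were kept under every alternative that could test them. No matching shares over all genes are given, so these counts are not read as a result about the histone genes as a group. The 10 members were Hist1h1a, Hist1h1b, Hist1h1c, Hist1h2bc, Hist1h2bg, Hist1h3g, Hist1h4i, Hist2h2be, Hist2h3c2 and Hist3h2a, whose shares of unique words ran from 35.8% up with a median of 67.2%. Of the 12 tested members with at least 50% unique words, 7 had such a call, and of the 30 others 3 did. Hist1h1a is among the 10 and among these 7, but it reached the filter only with the GCN2_del thapsigargin libraries. Its kept calls all lie in thapsigargin comparisons of GCN2_del and add no support. The 20 members called in no comparison had a median share of 11.7% and means of 0.398 to 2.07 TPM. Hist1h2ap was 1 of them: its 3 libraries of WT cells with thapsigargin were at 1.97, 0.000652 and 0 TPM, and its 3 of GCN2_del cells with AAS at 6.03, 3.50 and 0.00069 TPM.

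Promoter sequences from RefSeq (GRCm38.p6, 250 bases before to 50 after the start of the gene, gene strand) were found for 62 of the 69 members. Each was searched on both strands for the CCAAT box, bound by the factor NF-Y, for TATAAA and for the octamer ATTTGCAT, bound by POU2F1. CCAAT was present in 53 of the 62 member promoters, against 37.7% of 27025 gene promoters of this length, TATAAA in 35, against 14.2%, and the octamer in 14, against 1.74%. CCAAT was in all 6 H1, 18 H2A, 16 H2B and 10 H3 promoters and in 3 of 12 of H4. The octamer was in 7 of 18 H2A and 7 of 16 H2B promoters and in 0 of the others. Motifs did not overlap each other, but 20 of the windows overlap that of another member, so these counts are not of independent sequences. The promoters of 3 of the members that rose with thapsigargin in GCN2_del cells are shown with matches in capitals. They lie at chr13:23738557-23738856 for Hist1h1c, chr11:58954435-58954734 for Hist3h2a and chr13:23571150-23571449 for Hist1h2bg, all + strand.
Hist1h1c: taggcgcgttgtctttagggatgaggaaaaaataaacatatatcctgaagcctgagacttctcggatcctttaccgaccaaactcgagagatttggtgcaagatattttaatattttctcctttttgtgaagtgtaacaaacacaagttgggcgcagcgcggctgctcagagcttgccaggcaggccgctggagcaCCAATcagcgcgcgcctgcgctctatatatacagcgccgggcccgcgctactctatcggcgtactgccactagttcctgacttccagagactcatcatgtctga
Hist3h2a: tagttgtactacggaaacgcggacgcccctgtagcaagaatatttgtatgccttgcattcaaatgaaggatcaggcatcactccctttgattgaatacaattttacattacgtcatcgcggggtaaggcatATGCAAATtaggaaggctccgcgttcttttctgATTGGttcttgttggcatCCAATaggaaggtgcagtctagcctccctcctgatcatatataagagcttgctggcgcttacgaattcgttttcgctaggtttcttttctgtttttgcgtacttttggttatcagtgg
Hist1h2bg: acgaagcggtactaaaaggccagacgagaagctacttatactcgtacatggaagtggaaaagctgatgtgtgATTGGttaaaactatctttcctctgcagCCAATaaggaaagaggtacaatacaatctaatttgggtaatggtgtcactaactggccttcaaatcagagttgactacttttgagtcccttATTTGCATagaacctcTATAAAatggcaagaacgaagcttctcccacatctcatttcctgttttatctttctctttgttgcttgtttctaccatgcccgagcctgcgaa

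Hist1h1c held CCAAT and neither of the other motifs. Hist3h2a held CCAAT on both strands and the octamer on the reverse strand, and Hist1h2bg held all 3. Of the other members whose rises were kept, Hist1h1a and Hist1h1b held CCAAT and TATAAA but no octamer. Hist2h3c2 held CCAAT alone, and no promoter was found for Hist1h2bc. The window of Hist1h2bg overlaps that of its divergent neighbour Hist1h2ae (chr13:23570517-23571220, - strand), an H2A gene. Hist1h2ae was at 0.198, 1.60 and 1.31 TPM in GCN2_del cells with thapsigargin, against 0.878, 1.19 and 1.22 TPM with DMSO, and was not called (-0.12, limma adjusted p = 0.786). A match describes letters in a window and says nothing of binding.

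Genes that make and handle histone mRNA were counted beside the members. Of 45 S-phase genes, 26 (57.8%) rose and 3 fell with thapsigargin in GCN2_del cells, 1 rose and 1 fell in PERK_del cells, and 16 (35.6%) rose and 7 (15.6%) fell in WT cells. Their median changes were 0.24, -0.03 and 0.07, beside 0.08, -0.04 and -0.04 over all genes. Shares over all genes, against which these and the following list counts stand, were 25.4% higher and 11.3% lower in GCN2_del, 2.5 and 2.8% in PERK_del and 11.4 and 14.8% in WT cells. The largest rises in GCN2_del were of Cdt1, at 189 ± 11.2 TPM with thapsigargin against 81.7 ± 4.84 TPM with DMSO (1.20), and of Cdc6, at 84.7 ± 2.40 TPM against 41.1 ± 1.03 TPM (1.03), both of which load the MCM helicase onto origins before S phase. The largest falls were of Tk1, the S-phase thymidine kinase (-0.70), and Ccne1, cyclin E1 (-0.54). In WT cells the same 4 genes changed in the same directions (0.75 for Cdt1, 0.92 for Cdc6, -0.23 for Tk1 and -0.68 for Ccne1). In PERK_del cells Cdc6 rose (0.63) and Ccne1 fell (-0.25).

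Of 32 tested genes for histone gene transcription and mRNA processing, 12 (37.5%) rose and 4 (12.5%) fell with thapsigargin in GCN2_del cells, 0 rose and 2 fell in PERK_del cells, and 4 (12.5%) rose and 7 (21.9%) fell in WT cells. Casp8ap2, known as FLASH and needed for histone pre-mRNA cleavage, was at 43.1 ± 4.003 TPM with thapsigargin in GCN2_del cells against 23.7 ± 2.15 TPM with DMSO (0.83), and Hinfp, an activator of H4 genes, at 39.4 ± 3.63 TPM against 22.0 ± 1.93 TPM (0.81). Npat, the coactivator of clustered histone genes that cyclin E-CDK2 phosphorylates, rose to 31.02 ± 2.24 TPM against 22.1 ± 0.609 TPM (0.47, limma adjusted p = 0.00587). The falls were led by Ccne1, which the list shares with the S-phase genes, and Nfya, a subunit of NF-Y (-0.43). In WT cells Pou2f1 fell most (-1.12), followed by Nfya (-0.75), and Fip1l1, a polyadenylation factor, rose most (0.46).

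Of 11 tested replication-independent histone variant genes, which lie outside the clusters and give polyadenylated mRNAs, 2 (18.2%) rose and 3 (27.3%) fell with thapsigargin in GCN2_del cells. H1f0, a linker histone of resting cells, was at 221 ± 23.8 TPM with thapsigargin against 144 ± 5.24 TPM with DMSO (0.61), and H3f3b, which encodes H3.3, at 886 ± 20.8 TPM against 660.4 ± 49.5 TPM (0.43). H3f3a, the other H3.3 gene (-0.43), and Cenpa, the centromeric H3 (-0.43), fell most. In PERK_del cells 0 rose and 2 fell, and in WT cells 0 rose and 4 fell. Cenpa also led the falls in WT cells, with -0.59.

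Of 25 histone chaperone and assembly genes, 6 (24%) rose and 1 (4%) fell with thapsigargin in GCN2_del cells. This share of rises was near that over all genes. In PERK_del cells 0 were called, and in WT cells 4 rose and 3 fell. Ubn1 (0.48) and Daxx (0.32), both partners of H3.3 deposition, rose most in GCN2_del, and Nasp (-0.27), a chaperone of H3 and H4, fell. With starvation, where 11.7% of all genes rose and 12.2% fell in GCN2_del, 5.75 and 6.39% in PERK_del and 12.5 and 17.4% in WT cells, the S-phase list held 13 rises and 2 falls in GCN2_del cells, 1 and 1 in PERK_del cells and 8 and 12 in WT cells. The processing list held 7 and 1, 0 and 1, and 7 and 8 in the same order of lines. The variant list held 2 and 2, 1 and 3, and 1 and 4, and the chaperone list 5 and 0, 4 and 1, and 5 and 3. Untreated, against WT, 21.2% of all genes were higher and 23.2% lower in GCN2_del, and 31.2 and 18.6% in PERK_del. There the S-phase list held 5 higher and 18 lower in GCN2_del and 15 higher and 9 lower in PERK_del. The processing list held 4 higher and 11 lower in GCN2_del and 9 higher and 9 lower in PERK_del, and the variant list held 5 higher and 3 lower in GCN2_del and 6 higher and 1 lower in PERK_del. The chaperone list held 4 higher and 11 lower in GCN2_del and 4 higher and 11 lower in PERK_del.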

How the data were processed

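RNA-seq libraries of 36 samples in 12 groups were used, grouped by the labels. The values are TPM per gene in a table deposited by the authors. Kallisto, FastQC and the mm10 build are named in the submitters' processing notes, without versions. All columns have the same sum and TPM keeps no read depth, so the depth per library is unknown and no counting interval or floor is given. kallisto divides reads shared by near-identical transcripts by estimation, which bears on low histone rows.

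From the deposited TPM, log2(TPM + 1) was computed for the 16083 genes that reached 1 TPM in 3 or more libraries. All 12 groups were fitted in 1 model with limma 3.58.1 in R 4.3.3 (empirical Bayes with a trend, 24 residual degrees of freedom), with Benjamini-Hochberg adjustment over all 16083 genes in each of 15 comparisons and a threshold of 0.05. The fit was tested on simulated data. Sums and sequence searches used Python 3.11.15. Gene models came from GENCODE M21 and promoters from RefSeq GRCm38.p6.

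The members, the gene lists and the tests were chosen with earlier results of these data known. Values in every library were given for members among the 8 highest by mean TPM, and for up to 3 called members with the largest rise and fall in a comparison if 1 of its group means was 2 TPM or more; other members were named beside them for their class. Of each pathway list up to 2 called genes with the largest rise and 2 with the largest fall were named, and Npat was added after its values were seen. Alternatives were a pseudocount of 0.1, no filter, a filter at 5 TPM, median-of-ratios rescaling, quantile normalization, the compared groups fitted alone, a replicate block, protein-coding genes only, the other control, each library left out in turn and, chosen after seeing the data, the 6 libraries over 2% microRNA left out.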

Additional observations from a re-analysis of the deposited data

Results flagged for a closer look

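The response to thapsigargin differed between GCN2_del and WT cells, by limma's test of the difference, in 9 members (21.4%), each higher in GCN2_del. Over all genes the same test called 12.3% higher and 1.95% lower, so most differences were in that direction there too. The differences (log2) were 0.98 for Hist1h1c, 1.30 for Hist1h1b, 1.52 for Hist1h1a, 0.64 for Hist3h2a, 1.31 for Hist1h2bg, 1.73 for Hist1h2br, 0.70 for Hist2h2be, 1.10 for Hist2h3c2 and 0.85 for Hist1h3b. The limma adjusted p of Hist1h2br was 0.0395 and that of Hist1h3b 0.0444, and these calls were lost in 9 and 11 of the 12 fits that left out a library. That of Hist1h1b was lost with a pseudocount of 0.1, that of Hist3h2a under both rescalings, and that of Hist2h3c2 without WT DMSO replicate 1, under quantile normalization and with the other control. Hist1h1a and Hist1h3b reached the filter only with the GCN2_del thapsigargin libraries, so they had to be high there and their calls add no support. The median difference over all genes tested was 0.13.

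The thapsigargin response was lower in PERK_del than in WT cells by -0.83 for Hist1h1c, -0.70 for Hist1h2bc and -0.59 for Hist3h2a. The starvation response was lower in PERK_del than in WT cells by -0.48 for Hist1h1c and -0.91 for Hist1h2bg. The Hist1h1c call was lost in 7 of 12 fits that left out a library and the Hist1h2bg call in 1, and both without the libraries of high microRNA share and with the compared groups fitted alone. All differences share the WT libraries, and genotype and line cannot be told apart.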

How the results depend on the processing

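The counts of called members that moved by over 1.5 times were these. With a pseudocount of 0.1, 9 members were called for thapsigargin in GCN2_del cells and 1 for starvation there. At the 5 TPM filter, where only 6 members were fitted, the counts were 2 (AAS in WT), 1 (AAS in GCN2_del), 3 (thapsigargin in GCN2_del), 1 (AAS in PERK_del), 5 (GCN2_del against WT), 4 (PERK_del against WT), 2 (thapsigargin, GCN2_del minus WT) and 1 (AAS, PERK_del minus WT). That last count was 1 with no filter and 0 without the libraries of high microRNA share. Rescaling by median of ratios gave 9 for thapsigargin in GCN2_del cells. Quantile normalization gave 9 there, 0 for DMSO in GCN2_del, 5 for thapsigargin in GCN2_del minus WT, 7 for PERK_del against WT and 1 for AAS in PERK_del minus WT. With the compared groups fitted alone the counts were 1 (AAS in WT), 0 (DMSO in each of the 3 lines), 9 (thapsigargin in GCN2_del), 0 (AAS in PERK_del), 1 (thapsigargin in PERK_del) and 0 (AAS, PERK_del minus WT). With the other control they were 5 (AAS in PERK_del) and 1 (thapsigargin in PERK_del). With the other control the sign turned for Hist1h2bg (-0.040) and Hist1h1c (-0.33) with starvation in WT, for Hist1h1c with starvation in GCN2_del (-0.13) and for Hist1h1c with thapsigargin in PERK_del (0.73). By construction, the other control shifts a change by that of DMSO against no treatment. For Hist1h1c that shift was 0.65 in WT, 0.60 in GCN2_del and 0.76 in PERK_del cells, and for Hist1h2bg 0.50 in WT cells. The cause of the DMSO changes was not tested, nor was that of the other moves.

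Leaving out 1 library at a time gave 10 to 11 members for thapsigargin in GCN2_del, 1 to 3 for AAS and 0 to 1 for DMSO there, 2 to 4 for AAS in PERK_del, 1 to 3 for AAS and 0 to 2 for DMSO in WT, 6 to 8 for GCN2_del and 8 to 12 for PERK_del against WT, 6 to 10 for thapsigargin and 0 to 1 for AAS in GCN2_del minus WT, and 1 to 3 for AAS in PERK_del minus WT.

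With the replicate number as a block, 12 members were called for thapsigargin in GCN2_del cells, and all 15 counts stayed within 1.5 times. Deviations of same-numbered libraries correlated at a median of 0.00105 (-0.179 to 0.352 over 198 pairs). Of 36 libraries, 12 correlated best with their own number. These values cannot tell whether same-numbered libraries of some groups shared a culture or a batch, which the labels do not state.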
